A study of Homo sapiens with 6 samples.

Results

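The endoplasmic reticulum (ER) genes described here are 44 of the 28563 genes measured in HepG2 cells treated with polydatin (PD) or with DMSO. They were taken as a fixed list of gene symbols and matched to the deposited Ensembl identifiers. The list holds 45 names, because VIMP is an older symbol of SELENOS. By role they fall into 15 chaperones and their cofactors, 11 enzymes of disulfide bonds, 11 genes of ER-associated degradation (ERAD), 5 genes of the stress sensors and 2 subunits of the translocon. HepG2 is an established line from a human liver cancer, and PD is a plant stilbene glucoside. PD was given to 3 dishes at 336 µM by the sample labels, whereas the methods of the study state a somewhat lower dose, and 3 control dishes received the solvent DMSO. RNA was taken after 24 h, 1 library was made per dish, and the dishes were assigned at random, so the p-values measure the spread between dishes of 1 line. Levels are given as FPKM, a fragment count scaled by the exon length of the gene and by the depth of the library.

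The FPKM were worked back to whole fragments, which totalled between 16763318 and 17274927 per DMSO library and between 16308476 and 18071632 per PD library, and no library stood apart from its group. Of 20 hepatocyte markers, 10 are in the table used here and only CPS1 and RBP4 had a mean of at least 0.5 FPKM. CPS1 was at 225 ± 3.45 FPKM in DMSO and 109 ± 2.60 FPKM in PD (SD, n = 3), whereas HNF4A, a defining factor of hepatocytes, was at 0.0486 FPKM in DMSO and 0.0494 FPKM in PD, and ALB and AFP were not analysed here. The name HepG2 is therefore used as the labels give it. Among markers of other cell types, the fibroblast genes COL1A1 (3.46 FPKM in DMSO and 3.45 FPKM in PD) and PDGFRB (0.898 FPKM in DMSO and 1.08 FPKM in PD) were tested and not called, and the measured markers of endothelium and intestine had means below the 0.5 FPKM minimum.

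Proteins that are secreted or placed in membranes enter the ER through the translocon, fold there with the help of chaperones, and receive disulfide bonds from protein disulfide isomerases. Chains that fail to fold are drawn back to the cytosol and destroyed by the proteasome, which is ERAD. When unfolded chains build up, the sensors IRE1 (gene ERN1), PERK (gene EIF2AK3) and ATF6 start the unfolded protein response, in which the transcription factors XBP1 and ATF6 raise the genes of folding and ERAD. Liver cells export large amounts of plasma proteins and rely on this machinery. Of the plasma protein genes among the hepatocyte markers measured here, only RBP4 reached a mean of 0.5 FPKM. A sequence known for this response is the ER stress element, ERSE, in which CCAAT and CCACG are held apart by a fixed run of any 9 bases, and in a shorter form, ERSE-II, ATTGG and CCACG are separated by 1 base.

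These elements were searched on both strands in RefSeq promoter windows of GRCh38.p14, which run from 250 bases before to 50 after a gene start and are 300 bases long. A window was found for 41 of the 44 genes, and DERL1, DERL3 and PDIA3 had none. An exact ERSE lay in the windows of 8 of the 41 genes (19.5%), namely HSPA5, HSP90B1, CALR, CANX, CRELD2, PDIA6, XBP1 and ERO1B. Among all 27305 genes with a window the share was 0.0916%, or 25 genes, and among all 35116 windows it was 0.0769%. ERSE-II lay in 3 of the 41 (HERPUD1, HYOU1 and SDF2L1), against 0.0696% of all genes and 0.0541% of all windows. In the 14122 windows of tested genes the shares were 0.120% for ERSE and 0.106% for ERSE-II. Both elements were chosen because they are known for genes of this response, so these shares are a description and were not tested. The stretches below show where these letters stand in 8 of the genes whose levels are described here, 5′ to 3′ on the strand of the gene, with the fixed letters of the element in capitals. Where the element lies on the opposite strand its letters read as the reverse complement, as in CALR, CRELD2, HYOU1 and SDF2L1.
HSPA5: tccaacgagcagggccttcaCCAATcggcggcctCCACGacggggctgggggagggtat
XBP1: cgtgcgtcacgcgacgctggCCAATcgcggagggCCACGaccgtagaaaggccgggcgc
PDIA6: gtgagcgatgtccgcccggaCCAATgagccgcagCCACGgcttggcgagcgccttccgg
CALR: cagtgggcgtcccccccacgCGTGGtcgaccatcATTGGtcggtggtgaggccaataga
CRELD2: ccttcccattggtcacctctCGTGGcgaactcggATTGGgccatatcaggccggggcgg
HERPUD1: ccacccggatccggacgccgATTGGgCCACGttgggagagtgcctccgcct
SDF2L1: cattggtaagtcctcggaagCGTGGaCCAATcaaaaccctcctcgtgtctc
HYOU1, farther from the start: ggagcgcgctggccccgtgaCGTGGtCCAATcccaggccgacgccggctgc
HYOU1, nearer to the start: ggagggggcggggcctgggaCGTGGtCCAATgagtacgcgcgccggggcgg

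On the minus strand of GRCh38.p14 these stretches lie at chr9:125241371-125241429 (HSPA5), chr22:28800583-28800641 (XBP1), chr2:10812833-10812891 (PDIA6), chr11:119057360-119057410 and chr11:119057254-119057304 (HYOU1). On the plus strand they lie at chr19:12938364-12938422 (CALR), chr22:49918534-49918592 (CRELD2), chr16:56932005-56932055 (HERPUD1) and chr22:21642094-21642144 (SDF2L1). In GENCODE release 44 those of CALR, HERPUD1, HYOU1 and SDF2L1 lie outside their genes and that of CRELD2 in an intron, while exons of the named gene cover 12 bases in HSPA5, 15 in XBP1 and 7 in PDIA6. Counted from the start base at 0, the element began at -66 in HSPA5, -52 in XBP1 and -225 in CALR, so the distance was not fixed. The core of another element of this response, TGACGTGG, was found in 3 of the 41 (DNAJC10, TXNDC5 and HYOU1), where in HYOU1 it overlaps the farther ERSE-II, against 0.927% of all genes and 0.729% of all windows. The site of ATF4, TGATGNAAN, was found in HERPUD1 alone (2.44% of the 41), against 4.45% of all genes and 3.61% of all windows. In the windows of tested genes only, the shares were 0.850% for the core TGACGTGG and 1.95% for the ATF4 site. The 10 tested genes with an ERSE or ERSE-II were all called higher, where 31.9% of all tested genes were. Their median log2 fold change (PD minus DMSO) was 0.57, with a range of 0.36 to 1.24. Of the 29 tested genes with a window and no exact match to either element 23 were called higher, and their median was 0.38 (-0.23 to 1.31). An ERSE with at most 1 mismatch lay in 14 of the 41 genes (34.1%), against 1.89% of all genes. These include DNAJC3, SEL1L and SYVN1, which are counted here as having neither element. Most of the 10 are chaperones or their cofactors, a class in which all 15 genes were called higher, with or without an element. The sets thus differ in role too, and the difference between them was not tested. A match describes letters in a window and was not tested as a site of binding.

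**Figure D1:**
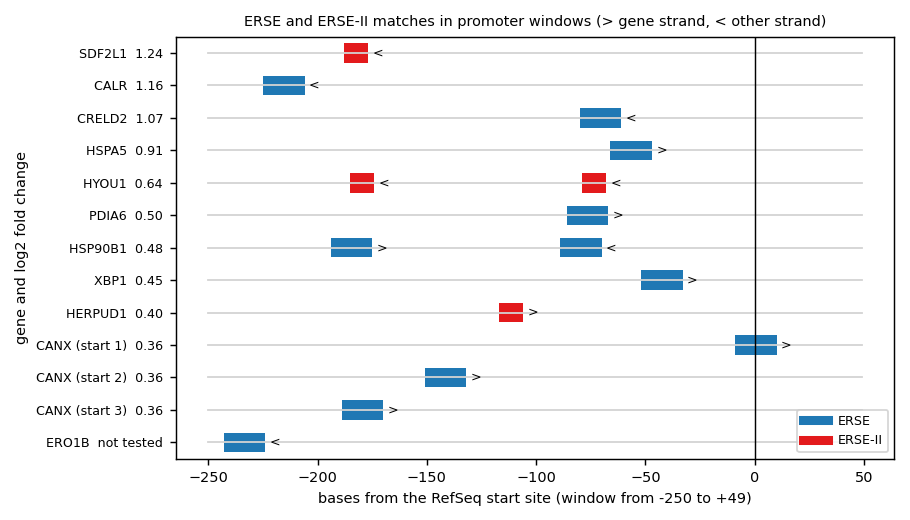
Position of ERSE (blue) and ERSE-II (red) matches in the promoter windows of the 11 ER genes that hold one, in bases from the RefSeq start site, with each gene's log2 fold change (PD minus DMSO, FPKM + 1) beside its name and 1 line per window. The matches begin between -243 (ERO1B) and -9, where the match in CANX, 1 site seen from 3 annotated starts, spans the first of them.

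The ER genes as a group were higher in PD. Their FPKM summed to 1536, 1536 and 1543 in the DMSO libraries and to 2498, 2517 and 2488 in the PD libraries, so the groups lay far apart. This was 0.606% ± 0.00255 of all FPKM in DMSO and 0.946% ± 0.00439 in PD (SD, n = 3). In bulk RNA, more RNA per cell and a larger share of cells with these transcripts cannot be told apart.

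Each gene was then tested. limma was fitted to log2(FPKM + 1) of the 14400 genes whose mean reached 0.5 FPKM, and a gene is called at an adjusted p (Benjamini-Hochberg) of at most 0.05. Of the 44 genes 42 were tested, and 35 were called, where 58.1% of all tested genes were. Of these 34 were higher and 1 lower, where 31.9% of all tested genes were called higher and 26.2% lower. At a change of at least 2-fold on this scale in addition, 6 were called, all higher (MANF, SDF2L1, CALR, DNAJB9, CRELD2 and EDEM2), where 2.04% of all tested genes were. This background depends on the setting. Over all genes, 520 changed at least 2-fold in either direction, but 1248 with 0.1 added to the FPKM in place of 1. With limma voom on fragments they were 1739. The ER genes called higher at 2-fold were 6, 6 and 7 in these 3 fits, so their excess over the background was smaller in the other 2. The 42 genes had a median log2 fold change of 0.46, and all tested genes had 0.01. In 36 of the 44 genes every PD library was above every DMSO library, in 3 every PD library was below, and in 5 the groups overlapped. Among the 42 tested genes the groups did not overlap in 37 (65.4% of all tested genes), and PD was the higher in 35 (35.6% of all tested genes). The tested genes had at least 165 fragments in every library.

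**Figure D2:**
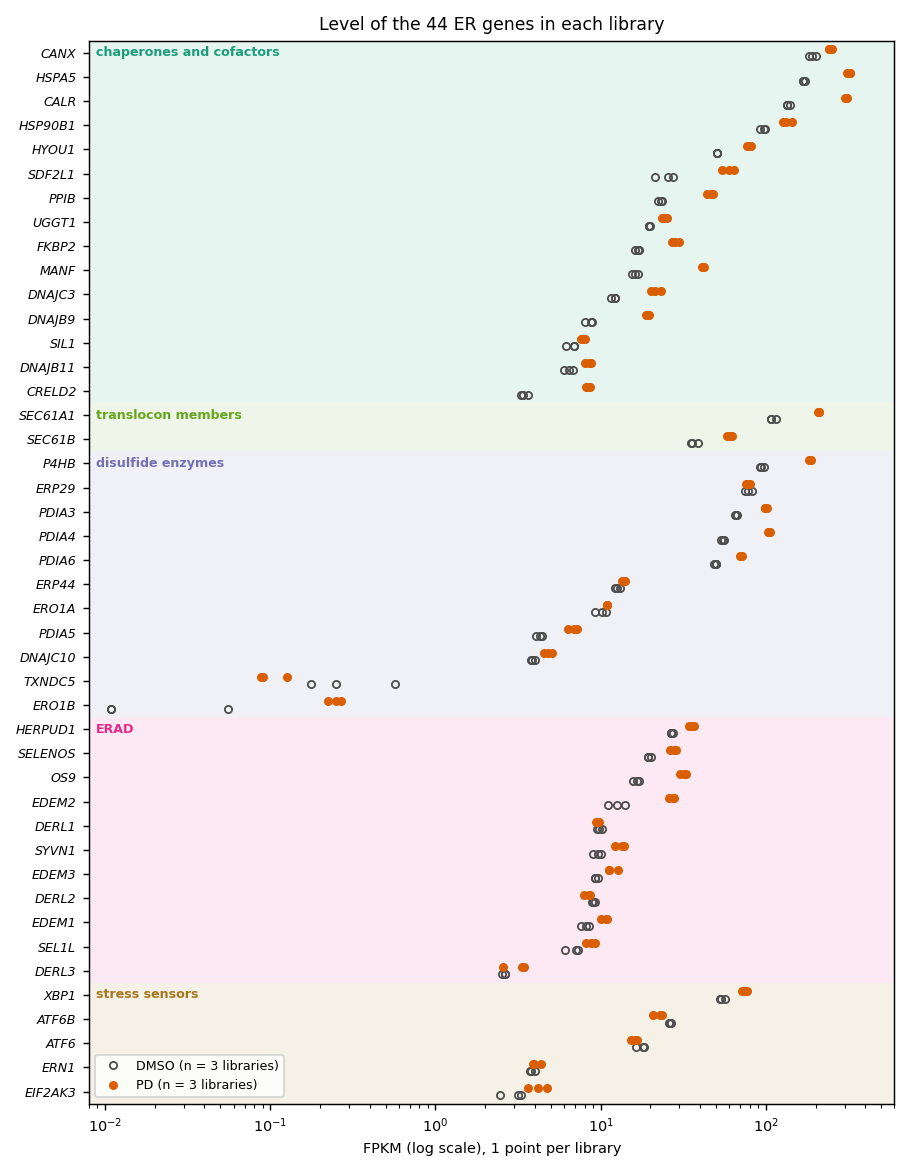
FPKM of the 44 ER genes in each of the 6 libraries (log axis), DMSO as open and PD as filled points, grouped by role and ordered by the DMSO mean. The PD points lie to the right of the DMSO points in 36 genes, and the genes span from 0.0108 FPKM for ERO1B in DMSO replicate 1 to 323 FPKM for HSPA5 in PD.

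All 15 chaperones and cofactors were called higher in PD (31.9% of all tested genes), with log2 fold changes of 0.21 to 1.31 and a median of 0.79. HSPA5 encodes BiP, the main HSP70 of the ER, which also holds the sensors inactive. It was at 172, 169 and 168 FPKM in DMSO and at 312, 323 and 323 FPKM in PD, so the groups did not overlap. Its mean rose 1.89-fold, with a log2 fold change of 0.91, a standard error (SE) of 0.03 and an adjusted p of 1.8e-06 (limma). HSP90B1 encodes GRP94, the HSP90 of the ER. It was at 98.8, 97.5 and 92.5 FPKM in DMSO and at 143, 128 and 133 FPKM in PD, a 1.40-fold rise (log2 fold change 0.48, adjusted p = 0.00013, limma). In both genes the lowest PD library was above the highest DMSO library, as in 35.6% of all tested genes.

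The largest rise of any of the 42 tested genes was that of MANF, a small secreted factor that binds BiP. MANF was at 16.2, 15.4 and 16.8 FPKM in DMSO and at 41.1, 41.9 and 41.4 FPKM in PD, a 2.57-fold rise (log2 fold change 1.31, SE 0.04, adjusted p = 1.9e-06, limma). SDF2L1, which works with the J proteins of the ER, was at 25.6, 21.4 and 27.4 FPKM in DMSO and at 64.4, 60.0 and 54.5 FPKM in PD, a 2.40-fold rise. CRELD2, a stress-induced ER protein, rose 2.42-fold from 3.45 ± 0.182 to 8.33 ± 0.240 FPKM (SD, n = 3). These 3 genes started from lower levels than BiP, and in none of them did the groups overlap (35.6% of all tested genes were higher without overlap).

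The J proteins of this class, which hand clients to BiP and start its ATP cycle, rose by unequal amounts. Other J proteins of the ER, in the further lists described below, were called in both directions. DNAJB9, which also restrains IRE1, was at 8.77, 8.87 and 8.04 FPKM in DMSO and at 19.7, 18.7 and 19.4 FPKM in PD, a 2.25-fold rise (log2 fold change 1.08, adjusted p = 5.0e-06, limma). DNAJC3 (p58IPK) rose 1.80-fold from 12.0 ± 0.429 to 21.5 ± 1.57 FPKM, and DNAJB11 rose 1.31-fold from 6.42 ± 0.401 to 8.44 ± 0.372 FPKM (SD, n = 3 each). The 95% interval of the log2 fold change was 0.97 to 1.20 for DNAJB9 and 0.21 to 0.48 for DNAJB11. Both nucleotide exchange factors of BiP rose too, HYOU1 by 1.57-fold from 50.7 ± 0.294 to 79.4 ± 1.97 FPKM and SIL1 by 1.18-fold from 6.64 ± 0.435 to 7.82 ± 0.214 FPKM (SD, n = 3 each). SIL1 was the smallest change among the chaperones, and without PD replicate 3 its adjusted p was 0.054 (limma).

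In the lectin cycle, which retains glycoproteins until they are folded, the soluble lectin rose most. CALR, calreticulin, was at 135, 134 and 141 FPKM in DMSO and at 305, 311 and 303 FPKM in PD, a 2.25-fold rise (log2 fold change 1.16, SE 0.03, adjusted p = 1.4e-06, limma). CANX, calnexin, its membrane-bound relative, rose 1.28-fold from 191 ± 8.23 to 245 ± 5.01 FPKM, and UGGT1, which tags unfolded glycoproteins for another round, rose 1.23-fold from 19.7 ± 0.247 to 24.2 ± 0.751 FPKM (SD, n = 3 each). CANX had the highest mean of the 44 genes in DMSO, and in PD it ranked below HSPA5 and CALR. The peptidyl-prolyl isomerases PPIB and FKBP2 rose 2.00-fold and 1.70-fold. Such folds are ratios of mean FPKM throughout, whereas log2 fold changes and calls use log2(FPKM + 1). On that scale PPIB had a log2 fold change of 0.97, so it was not among the genes called at 2-fold. Exons of another annotated gene cover 71.0% of the exon length of FKBP2 on the same strand, and 26.6% of that of PPIB on the opposite strand, so their fragments are less certain.

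Both subunits of the translocon rose. SEC61A1, the pore, was at 107, 108 and 115 FPKM in DMSO and at 206, 211 and 209 FPKM in PD, a 1.89-fold rise (log2 fold change 0.92, adjusted p = 3.2e-06, limma). SEC61B was at 35.1, 35.9 and 38.8 FPKM in DMSO and at 62.8, 60.5 and 58.6 FPKM in PD, a 1.66-fold rise (log2 fold change 0.71, adjusted p = 1.9e-05, limma). The groups overlapped in neither gene (35.6% of all tested genes were higher in PD without overlap).

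Of the 11 genes of disulfide bonds 9 were tested, and 7 were called higher and none lower, where 31.9% and 26.2% of all tested genes were. The median of their log2 fold changes was 0.50. The protein disulfide isomerases all rose where they could be tested. P4HB, the abundant PDI, was at 92.8, 93.3 and 98.1 FPKM in DMSO and at 182, 189 and 185 FPKM in PD, a 1.96-fold rise (log2 fold change 0.96, SE 0.03, adjusted p = 2.6e-06, limma). PDIA4 was at 53.8, 55.4 and 55.8 FPKM in DMSO and at 102, 105 and 104 FPKM in PD, a 1.89-fold rise. PDIA3, the isomerase that works with calnexin and calreticulin, was at 67.0, 65.7 and 65.0 FPKM in DMSO and at 98.5, 101 and 98.6 FPKM in PD, a 1.51-fold rise. PDIA5 and PDIA6 rose 1.60-fold and 1.43-fold, and DNAJC10, a reductase that opens disulfides for ERAD, rose 1.24-fold. In none of these 6 genes did the groups overlap, where PD was higher without overlap in 35.6% of all tested genes. Exons of genes on the opposite strand cover 25.2% of the exon length of PDIA6 and 17.7% of that of ERP29, so their fragments are less certain.

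Of the other tested genes of this class only ERP44 was called. ERP29, a PDI relative without the active-site cysteine pair, was at 75.0 to 81.9 FPKM in DMSO and 75.5 to 79.7 FPKM in PD, and its log2 fold change of -0.01 had a 95% interval of -0.11 to 0.08 (adjusted p = 0.81, limma). ERP44, which retrieves clients from the secretory route, was at 12.6 ± 0.466 and 13.7 ± 0.244 FPKM (SD, n = 3 each), and its call (adjusted p = 0.048, limma) was lost in 12 of 13 alternatives, with adjusted p up to 0.18. ERO1A, the oxidase that recharges PDI, was at 10.8, 10.1 and 9.24 FPKM in DMSO and at 10.9, 10.9 and 10.9 FPKM in PD, which was not called (log2 fold change 0.11, 95% interval -0.03 to 0.24), although without DMSO replicate 1 its adjusted p was 0.049 (limma). The other oxidase, ERO1B, was far lower and fell under the 0.5 FPKM minimum, with 1, 5 and 1 fragments in DMSO and 26, 21 and 22 in PD. Relative to the library totals this is a ratio of 9.71 with a 95% interval of 4.47 to 25.1, which covers counting error only. limma voom on fragments, which has a lower minimum, called ERO1B higher (log2 fold change 3.32, SE 0.50, adjusted p = 6.8e-06). TXNDC5 was under the minimum too, and it had 19, 13 and 43 fragments in DMSO and 7, 7 and 9 in PD, a ratio of 0.302 (0.181 to 0.488), and was called lower by voom (log2 fold change -1.50, adjusted p = 0.0055). Exons of the readthrough gene BLOC1S5-TXNDC5 cover 60.9% of its exon length, so the low level of TXNDC5 is uncertain.

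In ERAD 8 of 11 genes were called higher and none lower (31.9% and 26.2% of all tested genes), and the median of the log2 fold changes was 0.36. EDEM2, a mannosidase that marks misfolded glycoproteins, was at 11.1, 14.0 and 12.6 FPKM in DMSO and at 27.7, 27.3 and 25.9 FPKM in PD, a 2.15-fold rise (log2 fold change 1.05, SE 0.08, adjusted p = 3.3e-05, limma). EDEM1 and EDEM3, of the same family, rose 1.32-fold and 1.25-fold from 8.09 ± 0.430 and 9.37 ± 0.290 FPKM (SD, n = 3 each). OS9, the lectin that delivers marked clients, was at 16.7, 15.6 and 17.0 FPKM in DMSO and at 30.1, 32.7 and 31.8 FPKM in PD, a 1.92-fold rise. Exons of AGAP2-AS1 on the same strand cover 15.9% of the exon length of OS9, and exons of AGAP2 and another gene on the opposite strand cover 16.6%. EDEM2 and OS9 were thus the ERAD genes with the largest changes, and neither pair of groups overlapped (35.6% of all tested genes were higher without overlap).

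Genes of the retrotranslocation complex rose by 1.28-fold to 1.41-fold. SEL1L, the scaffold of the ubiquitin ligase, was at 7.06, 7.26 and 6.08 FPKM in DMSO and at 9.19, 8.72 and 8.17 FPKM in PD, a 1.28-fold rise (adjusted p = 0.0073, limma). SYVN1, the ligase HRD1, rose 1.38-fold from 9.56 ± 0.515 to 13.2 ± 0.825 FPKM (SD, n = 3 each). HERPUD1, which assembles this complex, was at 26.7, 27.2 and 26.7 FPKM in DMSO and at 34.4, 36.8 and 36.0 FPKM in PD, a 1.33-fold rise (log2 fold change 0.40, adjusted p = 7.9e-05, limma). SELENOS, which links the complex to the ATPase VCP, was at 19.2, 19.4 and 20.2 FPKM in DMSO and at 26.4, 27.8 and 28.6 FPKM in PD, a 1.41-fold rise. The derlins, membrane proteins of the exit route, were not called. DERL1 was at 9.82 ± 0.294 and 9.54 ± 0.219 FPKM, and DERL2 at 9.08 ± 0.190 and 8.35 ± 0.360 FPKM in DMSO and PD (SD, n = 3 each), with 95% intervals of the log2 fold change of -0.14 to 0.06 and -0.22 to -0.00088. For DERL2 every PD library was below every DMSO library, and its adjusted p was 0.023 under upper quartile scaling and 0.028 under median-of-ratios scaling (limma). DERL3 was at 2.60 ± 0.0478 and 3.11 ± 0.464 FPKM (adjusted p = 0.11, or 0.010 without PD replicate 1, limma), and exons of SMARCB1 on the opposite strand cover 77.0% of its exon length.

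The 5 genes of the stress sensors went both ways, with 2 called higher, 1 lower and 2 neither, shares near the 31.9% and 26.2% of all tested genes, and a median log2 fold change of 0.06. XBP1, the transcription factor whose mRNA IRE1 splices, was at 56.7, 53.4 and 52.6 FPKM in DMSO and at 72.2, 76.8 and 74.4 FPKM in PD, a 1.37-fold rise (log2 fold change 0.45, SE 0.04, adjusted p = 7.3e-05, limma). FPKM per gene do not separate spliced from unspliced XBP1 mRNA. ERN1, the gene of IRE1, was at 3.80, 3.74 and 4.01 FPKM in DMSO and at 3.93, 4.37 and 3.91 FPKM in PD, so its groups overlapped (95% interval of the log2 fold change -0.08 to 0.20). EIF2AK3, the gene of PERK, was at 2.47, 3.30 and 3.15 FPKM in DMSO and at 4.19, 3.63 and 4.73 FPKM in PD, a 1.41-fold rise (adjusted p = 0.019, limma). This call was lost without PD replicate 1 (adjusted p = 0.0503), without PD replicate 3 (adjusted p = 0.063) and with no filter on low FPKM (adjusted p = 0.058).

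ATF6B was the gene that fell. It encodes a relative of ATF6 and was at 26.3, 26.0 and 26.6 FPKM in DMSO and at 22.8, 23.4 and 20.8 FPKM in PD (log2 fold change -0.23, SE 0.05, adjusted p = 0.0047, limma). ATF6 was at 18.3, 18.1 and 16.5 FPKM in DMSO and at 16.5, 15.3 and 16.2 FPKM in PD, and its log2 fold change of -0.13 was not called (adjusted p = 0.067, limma). It was called lower under both other scalings (adjusted p = 0.020 and 0.025), with voom on fragments (0.024) and without DMSO replicate 3 (0.019). The mean of PD over DMSO thus lay between 0.849-fold and 1.41-fold in the 5 sensor genes, and between 1.18-fold and 2.57-fold in the 15 chaperones.

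**Figure D3:**
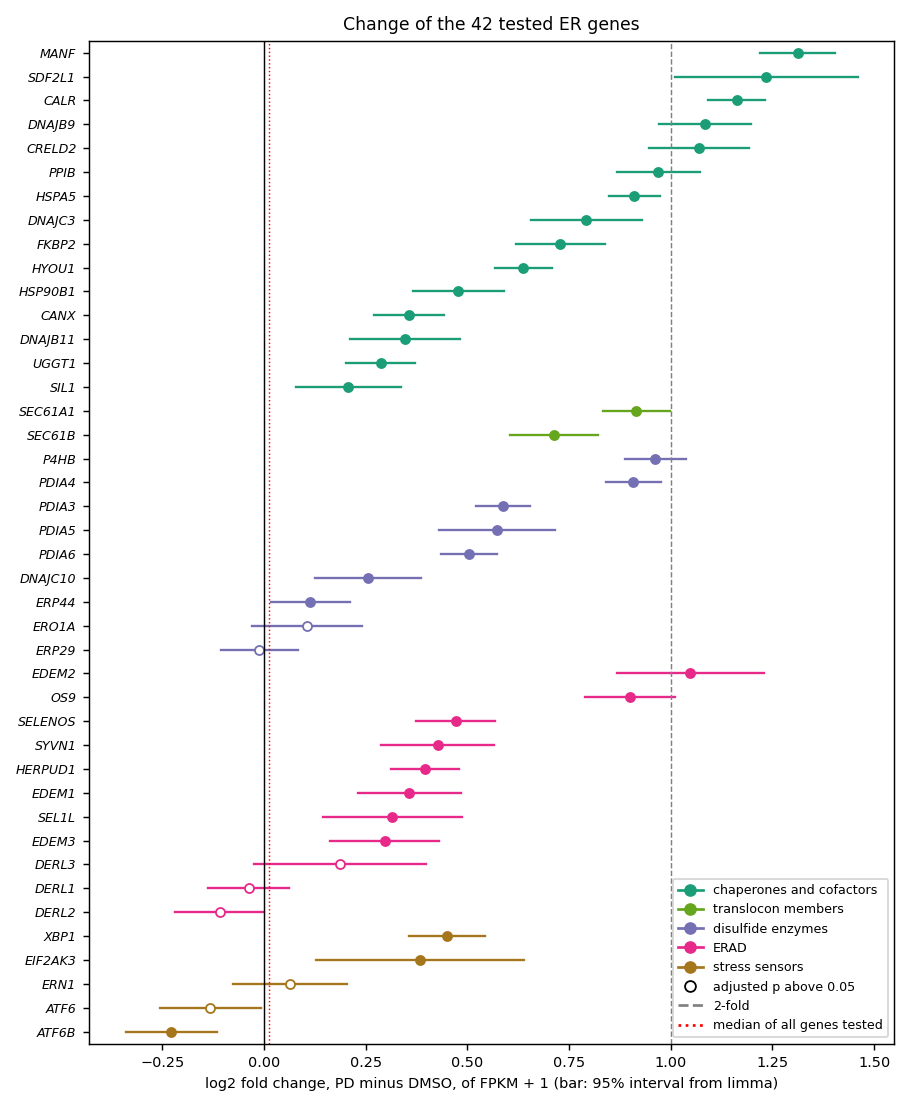
Log2 fold change (PD minus DMSO, on the FPKM + 1 scale) of the 42 tested ER genes by role, with 95% intervals from limma, where open points have an adjusted p above 0.05, the dashed line is 2-fold and the dotted line is the median of all 14400 genes. All chaperones lie right of 0, MANF is farthest at 1.31, and ATF6B at -0.23 is the called gene on the left.

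The balance between related genes was compared as the log2 ratio of their FPKM within each library, which no scaling between libraries can change, with exact two-sided permutation tests over 8 pairs whose smallest p for 3 against 3 libraries is 0.10. The ratio of CALR to CANX was -0.49 ± 0.10 in DMSO and 0.32 ± 0.04 in PD (SD, n = 3, exact p = 0.10, adjusted p = 0.16). The FPKM of CALR were thus below those of CANX in all 3 DMSO libraries and above them in all 3 PD libraries. This order depends on the exon lengths used, because CANX had more fragments than CALR in every library. HSPA5 to HSP90B1 went from 0.82 ± 0.04 to 1.25 ± 0.11, and SEC61A1 to SEC61B from 1.59 ± 0.02 to 1.78 ± 0.06. EDEM1 to EDEM2 went from -0.63 ± 0.21 to -1.34 ± 0.01, toward EDEM2. In each of these pairs, and in ERO1A to ERO1B, the groups did not overlap and the exact p was 0.10, the smallest possible. EDEM1 to EDEM3 (-0.21 ± 0.08 and -0.14 ± 0.08) and ATF6 to ATF6B (-0.58 ± 0.10 and -0.48 ± 0.13) overlapped between the groups, with an exact p of 0.40 each. The groups of DERL1 to DERL2 overlapped too, with a difference of 0.08 and an exact p of 0.20. None of the 8 could pass 0.05 in this design.

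**Figure D4:**
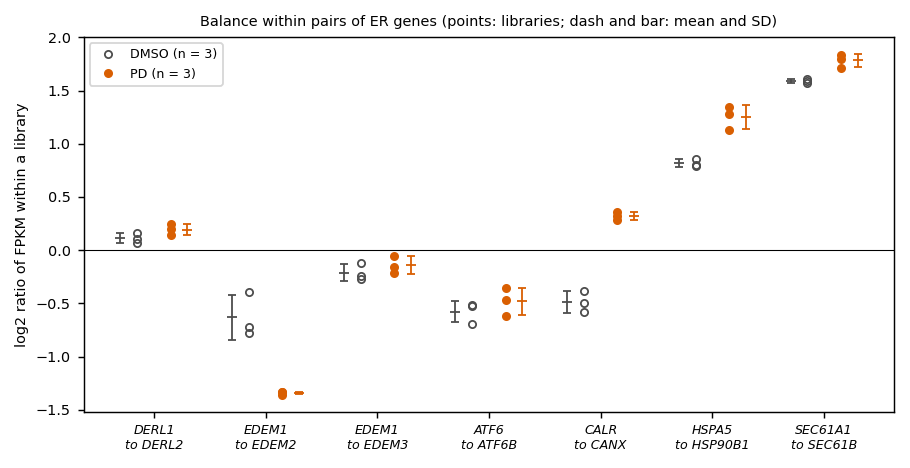
Log2 ratio of FPKM within each library for 7 pairs of ER genes (points are libraries, dash and bar are mean and SD of 3 libraries), DMSO open and PD filled. CALR to CANX crosses from -0.49 to 0.32, while the groups overlap in the pairs EDEM1 to EDEM3, ATF6 to ATF6B and DERL1 to DERL2.

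Other genes of the pathway were read from lists by role. Against 31.9% of all tested genes called higher and 26.2% called lower, of 12 subunits of the oligosaccharyltransferase, which attaches glycans to entering chains, 9 were called higher and none lower, with OSTC at 27.0 ± 2.65 and 47.9 ± 0.453 FPKM and TUSC3 at 7.25 ± 0.496 and 12.6 ± 0.283 FPKM in DMSO and PD (SD, n = 3 each). Of 22 other genes of entry and signal peptide removal, 11 were higher and 4 lower, with SEC11C (log2 fold change 0.85), a signal peptidase subunit, and SRPRB (0.73) changed most. Exons on the opposite strand cover 18.4% of the exon length of SRPRB. Of 19 genes of COPII export and retrieval, 12 were higher and 2 lower, led by KDELR3, a receptor that returns ER chaperones from the Golgi, which rose from 6.46 ± 0.322 to 16.6 ± 0.218 FPKM (SD, n = 3 each), and by PREB (0.89). These lists had medians of 0.41, 0.11 and 0.19 on the log2 scale, against 0.01 for all tested genes.

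The lists that follow are to be read against the 31.9% of all tested genes called higher and the 26.2% called lower. Of 13 tested further disulfide enzymes 6 were called higher and 1 lower, and TMX4 (1.12) and QSOX1 (1.10) changed most. Of 23 further ERAD genes 12 were higher and 4 lower, led by FOXRED2 (0.66) and ERLIN2 (0.58). Of 12 tested partners and substrates of the sensors 7 were higher and 2 lower, among them TRAF2, an adaptor of IRE1, which fell from 94.2 ± 5.48 to 59.6 ± 1.36 FPKM, and DNAJC1, which rose from 10.8 ± 0.609 to 17.2 ± 1.74 FPKM (SD, n = 3 each). Genes of ER calcium were higher in 6 of 13 and lower in 2, led by the calcium pump ATP2A3, which went from 0.467 ± 0.0609 to 2.70 ± 0.0783 FPKM (SD, n = 3 each), and STIM1 (0.91). Of 8 receptors of ER-phagy, which degrades pieces of the ER, 6 were higher and none lower, with TEX264 (0.87) and RETREG2 (0.79) changed most.

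The PERK arm and the wider integrated stress response had 5 of 13 genes called higher and 2 lower, near the background of 31.9% higher. DDIT3, which encodes CHOP, was at 15.5, 10.6 and 12.7 FPKM in DMSO and at 24.4, 29.9 and 30.4 FPKM in PD (log2 fold change 1.08, adjusted p = 0.0004, limma), and ASNS, a target of ATF4, rose from 107 ± 2.21 to 189 ± 2.52 FPKM (SD, n = 3 each). Exons of another gene on the same strand cover 49.3% of the exon length of ASNS, and exons of genes on the opposite strand cover 31.6% of that of DDIT3, so both are less certain. ATF4 mRNA, which is controlled mainly in translation, was at 187, 187 and 193 FPKM in DMSO and at 182, 182 and 191 FPKM in PD (adjusted p = 0.45, limma). Among 15 heat shock genes, most of them cytosolic and some mitochondrial, 9 were higher and 3 lower. The largest rises were those of HSPA1B (1.69) and HSPA1A (1.18), near-identical copies whose fragments cannot be told apart with certainty. The change was thus not limited to chaperones of the ER.

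**Figure D5:**
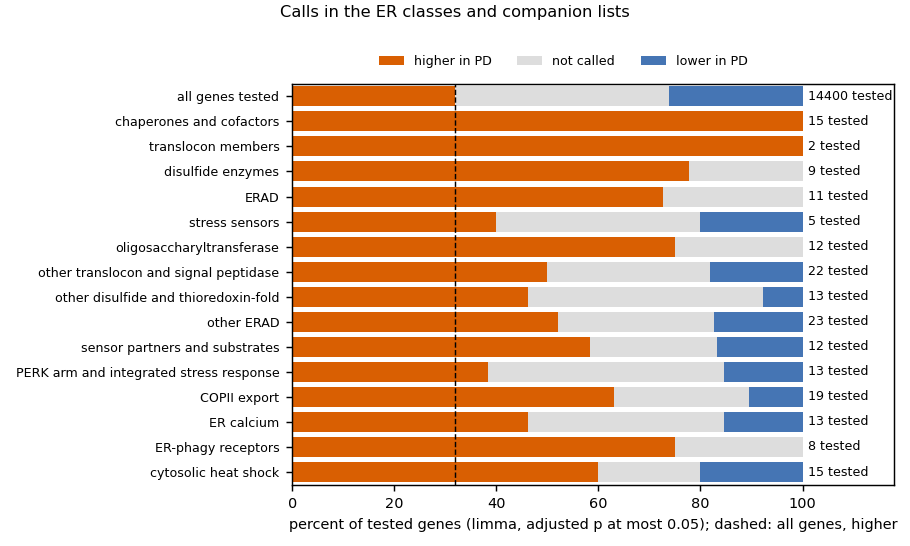
Percent of tested genes called higher (orange), not called (grey) or called lower (blue) in PD by limma at an adjusted p of at most 0.05, for all tested genes, the 5 ER classes and 10 further lists, with the number tested beside each bar. The dashed line marks the 31.9% of all tested genes called higher, and the chaperone bar is orange throughout whereas the stress response bar is near the line at 5 of 13.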

How the data were processed

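PD-treated and DMSO-treated HepG2 cells were compared with 3 libraries each. The authors selected poly(A) RNA, aligned paired reads to hg38 with HISAT2, counted them per gene with HTSeq 0.6.0 and deposited the counts as FPKM in 1 table. Whether counting used strand is not given in the sources used here. The genes, classes, lists and motifs were chosen with earlier results of these data known.

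Log2(FPKM + 1) of 14400 genes, whose mean FPKM reached 0.5, was fitted by limma 3.58.1 in R 4.3.3, PD against DMSO without covariates, with an intensity trend, and p-values were adjusted over these genes by the Benjamini-Hochberg method. Changes of genes with low FPKM are understated on this scale. Symbols and exons came from GENCODE release 44, and 28161 identifiers matched. Fragments were worked back from steps in the FPKM for all 28563 genes, 12772 of them with the annotated exon length. Exact permutation tests used scipy 1.17.1. The fit was tested on simulated data. Alternatives were a pseudocount of 0.1, no filter, a replicate block, upper quartile and median-of-ratios scaling, no trend, limma voom on fragments (at least 10 in 3 libraries) and leaving out each library. All genes of the list may be named, and values per library follow a rule of the 3 largest changes per class plus 9 fixed genes. From each further list the 2 called genes with the largest changes, DDIT3 and ATF4 are named.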

Additional observations from a re-analysis of the deposited data

How the results depend on the processing

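Among the values recomputed under each alternative, 336 summary values stayed within the limits set for them and 14 moved. Counts were allowed a limited change and medians a change within the SD of the PD libraries. Ratios of pairs were checked for direction only, not for size. The number of all genes changed at least 2-fold rose from 520 to 1248 with a pseudocount of 0.1 and to 1739 with voom on fragments. The cause was not tested for voom, which also differs in its filter and weights. The ER genes called lower were 3 in place of 1 under upper quartile scaling, median-of-ratios scaling and voom (ATF6 in all 3, with DERL2 under both scalings and TXNDC5 with voom), and 1 to 2 when 1 library was left out. The median log2 fold change of all tested ER genes was 0.42 under upper quartile scaling (0.46 as reported). That of the disulfide enzymes was 0.28 with no filter, which adds TXNDC5 and ERO1B, 0.46 under upper quartile and 0.47 under median-of-ratios scaling (0.50 as reported). That of the translocon genes was 0.77 and 0.78 under these scalings and 0.79 to 0.85 with 1 library left out (0.81 as reported). Of the single genes ERP29 changed sign, with -0.0408 to 0.0218 when 1 library was left out, and was called under none. Libraries with the same replicate number did not deviate together (correlations of -0.03, -0.0046 and 0.09 for the 3 numbers), so the numbers were not taken as pairs, and with a replicate block 4414 genes were called higher and 3618 lower in place of 4588 and 3780, among them 34 of the 35 ER genes. Of the ER genes only TXNDC5 and ERO1B had fewer than 100 fragments in a library. Counts were modest in some tested genes too, with 165 to 222 per library in DERL3 and 232 to 419 in EIF2AK3. The calls of DERL3 and EIF2AK3 changed between settings.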
